A study of Caenorhabditis elegans with 9 samples.

Results

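The transthyretin-related (ttr) genes of Caenorhabditis elegans were followed on 9 Affymetrix C. elegans GeneChip arrays. Members are the genes whose array annotation gives the symbol ttr with a number, each read by a probe set of that gene alone, and by the one with the highest mean over the 9 arrays where a gene has several. This gave 40 members out of 17118 genes with a probe set of their own. Of the 59 ttr genes in the RefSeq gene table, 6 are matched only by 3 probe sets that each cover a pair of genes (ttr-3 with ttr-4, ttr-30 with ttr-59, ttr-49 with ttr-40), and 13 have no annotated probe set, among them ttr-33, which is known for a protective role in dopaminergic neurons. The member ttr-24 alone has a second probe set of its own. No filter on low signal was applied, so all 40 members were tested.

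The ttr family is large in nematodes. Its products are mostly small proteins predicted to be secreted, and they resemble vertebrate transthyretin, the carrier of thyroid hormone and retinol-binding protein, in sequence. Most members have no known function. The best understood is TTR-52, a secreted protein that binds phosphatidylserine on dying cells and bridges them to the engulfment receptor CED-1. In the study, ttr-3, ttr-4 and ttr-15 were first listed as candidate Wnt targets from these same samples. Their levels here are thus not independent evidence of that choice. The study also reported each of them raised by qPCR in a repeat of the experiment, against a control other than N2. Its ttr-3 reporter was seen in seam cells, P cell descendants and hypodermal cells, while no expression was detected for ttr-4 and ttr-15.

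Larvae were heat shocked at the L2/L3 molt, and the study asked which transcripts of the seam cells and vulval precursor cells (VPCs) respond to Wnt signaling. In Wnt overactivation (deIs10; huIs1) the heat shock promoter hsp-16.2 drives ΔNTBAR-1, a β-catenin without its degradation region, and in Wnt underactivation (deIs10; deIs26) it drives ΔNTPOP-1, a TCF factor without its amino terminus. Both strains carry dpy-20(e1282) and unc-30(e191) and the integrated array deIs10, in which a bar-1 enhancer drives FLAG::PAB-1 for mRNA tagging together with unc-30(+) and ajm-1::gfp, and the heat shock arrays bring dpy-20(+). The N2 control carries none of these arrays or alleles, and its extracts went through the same heat shock and coimmunoprecipitation by the methods, so a comparison with N2 includes the tag, the markers and the strain background. Each integrated array stands for 1 line, and each group has 3 arrays from biological replicates. The replicate numbers of the labels are 2, 3 and 4 in N2, 1, 3 and 4 in overactivation, and 2, 4 and 5 in underactivation.

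The values are log2 signals. Over all probe sets, arrays of a group correlated at 0.942 to 0.976 and arrays of different groups at 0.928 to 0.973. As a check of the labels, bar-1 read 9.04 to 9.55 in N2, 9.64 to 11.75 in overactivation and 9.15 to 9.55 in underactivation, and pop-1 read 4.85 to 6.42, 4.81 to 5.80 and 8.67 to 11.71. The seam cell list was measured through 9 of 11 genes and read 6.67 to 7.09 in N2, 7.49 to 7.90 in overactivation and 6.72 to 7.47 in underactivation as the mean of its genes on an array. In overactivation 7 of these genes had higher means than in N2 and 2, ceh-16 and rnt-1, lower ones, with 0 called. The list holds egl-18, elt-6 and che-14, which the study picked from these same samples as raised by overactivation. Its higher mean there is thus in part built in. All 7 body wall muscle genes were measured, at 10.73 to 10.77, 9.47 to 10.12 and 9.97 to 10.39 in these groups, so RNA of other tissues was present in every group. The 5 vulval precursor genes read 6.20 to 7.18, 6.88 to 7.42 and 6.47 to 6.91, the 12 neuronal genes 7.32 to 7.72, 6.70 to 7.07 and 6.88 to 7.27, and the 9 intestinal genes 7.38 to 7.92, 6.34 to 7.18 and 6.16 to 7.34. All 7 muscle genes had lower means in overactivation than in N2, with 2 called, as had 9 of 12 neuronal and 7 of 9 intestinal genes, with 1 called in each. Underactivation means were also below N2 in 6 of 7 muscle, 10 of 12 neuronal and 7 of 9 intestinal genes, with 0 called. Of 5 pharyngeal genes 4 were lower than N2 in each tagged strain. Of 5 hypodermal genes 2 were lower in overactivation and 3 in underactivation, and of 4 glial genes 1 in each. The part of these tissues in the ttr values was not tested. N2 carries no FLAG tag, so the recovery of RNA with the tag also differs between N2 and the tagged strains. In such bulk samples this recovery, fewer cells of a type and less RNA per cell cannot be told apart.

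In Wnt overactivation the ttr genes did not move in 1 direction relative to N2. Of the 40 members 20 (50%, beside 57.8% of all genes) had a higher mean and 20 a lower one, and the median difference was -0.02 log2, beside 0.07 over all genes. Leaving out 1 array moved this median between -0.11 (without overactivation replicate 1) and 0.10 (without overactivation replicate 3), on both sides of 0. For genes with a mean signal of at least 8, a limit set after the values were seen, it was -0.32 for 22 members, beside 0.11 for 2882 genes. The gene ttr-56 rose 3.55-fold, and it was the 1 member that passed at an adjusted p under 0.05 from limma, the linear model fitted to all probe sets and adjusted over them by Benjamini-Hochberg. No member was called lower. Called higher was thus 1 of 40 members, or 2.5%, where 0.976% of all genes were called higher, and 0 of 40 were called lower, where 0.596% of all genes were (1.57% in either direction). An unadjusted p under 0.05 was reached by 6 members on the higher and 3 on the lower side, that is 15% and 7.5%, beside 9.75% and 7.57% of all genes, and 22.5% against 17.3% in either direction.

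The signal of ttr-56 (F56F4.9, chromosome I) read 2.95, 3.56 and 3.20 on the N2 arrays, 4.50, 5.40 and 5.30 in overactivation, and 3.51, 3.29 and 3.15 in underactivation. Every overactivation array lay above every array of the other groups, and the N2 and underactivation arrays overlapped. Its mean was 5.07 ± 0.49 (SD, n = 3) in overactivation, 3.24 ± 0.30 (SD, n = 3) in N2 and 3.31 ± 0.18 (SD, n = 3) in underactivation. The difference from N2 was 1.83 log2 (standard error 0.28, adjusted p = 0.0254 from limma), and that from underactivation was 1.75 log2, or 3.37-fold (95% interval 1.12 to 2.38, adjusted p = 0.181), which did not pass. Underactivation itself differed from N2 by 0.08 (adjusted p = 0.956). Neighbours of ttr-56 on either side are ttr-55 and ttr-58, which have no annotated probe set. No present calls were used, and the low N2 and underactivation signals of ttr-56 may lie within background, which leaves the size of its fold uncertain.

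The call of ttr-56 depended on single arrays and on the model. It was lost without moderation of the variances (adjusted p = 0.120), in a fit of just the 2 groups (adjusted p = 0.0748), with the replicate number as a block (adjusted p = 0.143) and with the hsp-70 or actin signal of each array as a covariate (adjusted p = 0.0821 and 0.654). It was kept in 4 of 9 fits that left out 1 array each and lost without N2 replicate 4 (adjusted p = 0.0622), overactivation replicate 3 (adjusted p = 0.0876), overactivation replicate 4 (adjusted p = 0.0598), underactivation replicate 2 (adjusted p = 0.0505) or underactivation replicate 5 (adjusted p = 0.0516). Over these 9 fits the log2 difference was 1.66 to 2.11. The fits with the actin covariate or the replicate block had little power to keep a call. The actin value was higher on every overactivation array than on every N2 array, so that fit can hardly tell it from the group. Replicate numbers 1 and 5 were each held by 1 array, and the block used up most residual degrees of freedom.

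**Figure D1:**
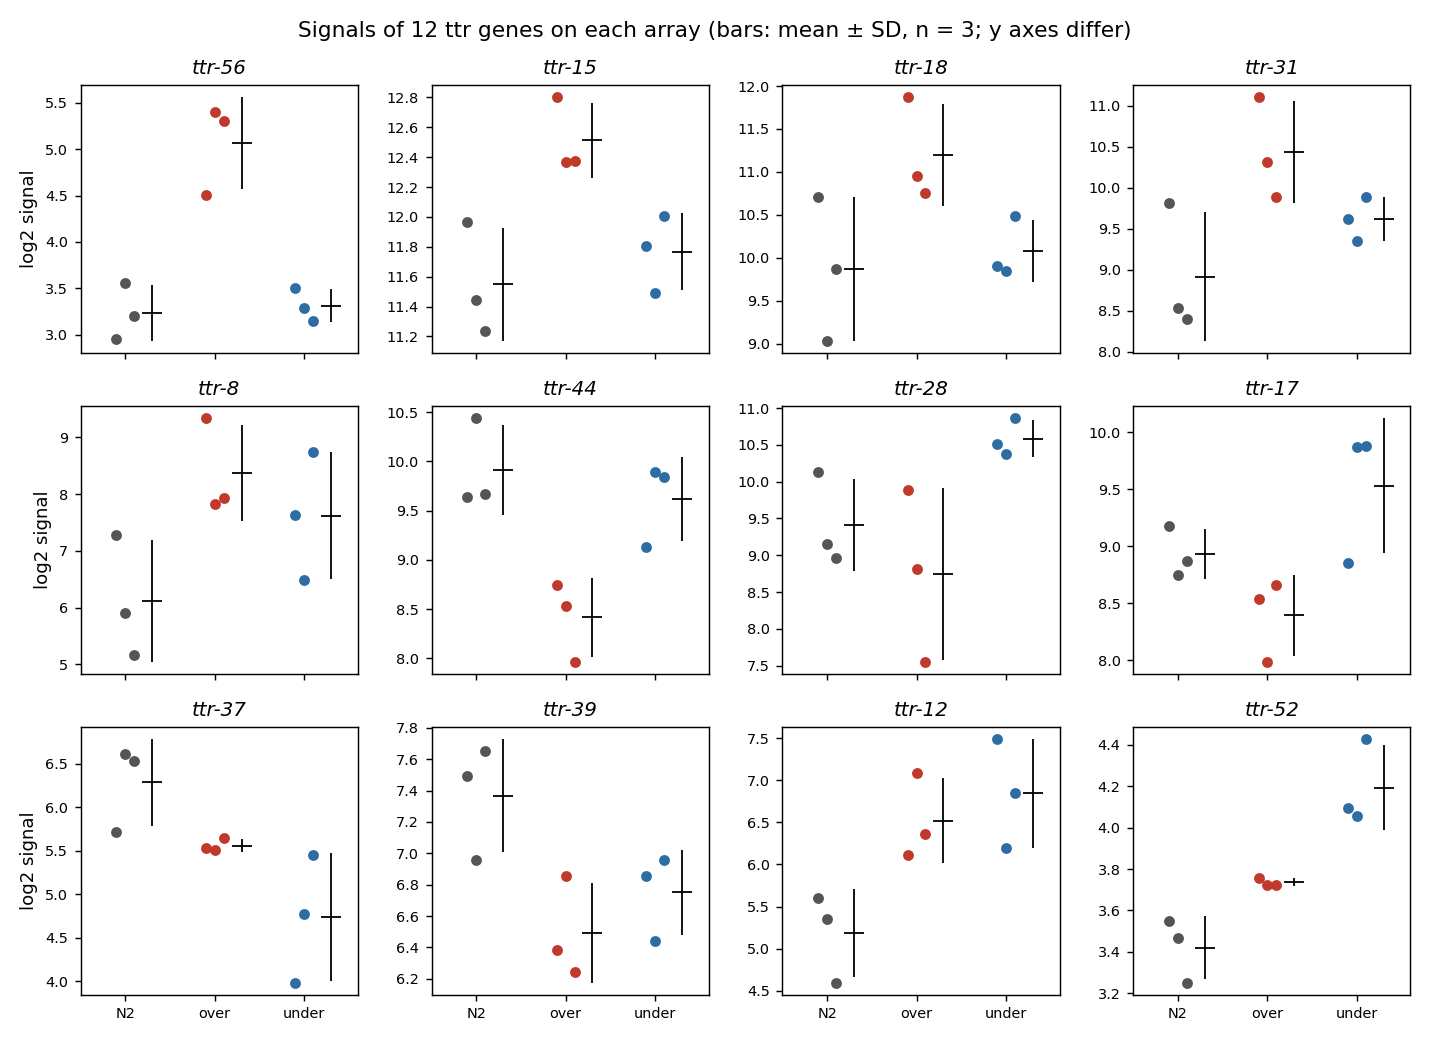
Log2 signal (y axis, a scale of its own for each gene) of 12 ttr genes on each of 9 arrays, with N2 in grey, overactivation in red and underactivation in blue (x axis), and bars for the mean ± SD of 3 arrays. In ttr-56 the overactivation arrays read 4.50 to 5.40 and all other arrays 2.95 to 3.56, and in ttr-44 the overactivation arrays lie below all others.

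Next to ttr-56, 9 further members had overactivation arrays that all lay above the N2 arrays without passing the test. Together these 10 members are 25% of the 40, beside 12.7% of all genes, whereas at a mean signal of at least 8 the share was 18.2% of the members and 19.5% of all genes. The largest of these differences was in ttr-8 (R13A5.6), which read 7.28, 5.90 and 5.17 in N2, 9.34, 7.82 and 7.94 in overactivation, and 7.63, 6.49 and 8.73 in underactivation. Overactivation was 2.25 log2, or 4.76-fold, above N2 (standard error 0.71, adjusted p = 0.142), while the underactivation arrays overlapped both other groups. The gap between the highest N2 array and the lowest overactivation array was small beside the spread within each group.

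The gene ttr-15 (T07C4.5), one of the candidate targets, had a bright and steady probe set. It read 11.97, 11.44 and 11.24 in N2, 12.80, 12.36 and 12.37 in overactivation, and 11.80, 11.49 and 12 in underactivation. The overactivation arrays lay above all other arrays, and those of N2 and underactivation overlapped. Overactivation was 1.95-fold above N2 (0.96 log2, standard error 0.25, adjusted p = 0.0904). It was 1.68-fold above underactivation (0.75 log2, 95% interval 0.18 to 1.31, adjusted p = 0.738), and neither difference passed. The unadjusted p from limma was 0.00398 against N2 and 0.0156 against underactivation. The study's rule was a different one, with limits on both folds, a p limit with no adjustment stated, and present and increased calls. Both folds of ttr-15 lay above the study's fold limits, and its calls were not used here. The missed adjusted p is thus not a test of the study's choice.

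The same order of arrays was seen in ttr-18 (B0334.1), at 10.71, 9.03 and 9.87 in N2, 11.87, 10.95 and 10.76 in overactivation, and 9.90, 9.84 and 10.49 in underactivation. Its overactivation mean was 2.50-fold above N2 (1.32 log2, adjusted p = 0.167) and 2.16-fold above underactivation (1.11 log2, adjusted p = 0.838). In ttr-31 (F58A3.5) the N2 arrays read 9.82, 8.54 and 8.40, the overactivation arrays 11.11, 10.32 and 9.89, and the underactivation arrays 9.62, 9.35 and 9.89. Overactivation was 2.87-fold above N2 in ttr-31 (1.52 log2, standard error 0.43, adjusted p = 0.112), and its lowest array was level with the highest underactivation array. N2 replicate 2 was the high N2 array in both genes, and without it ttr-31 passed (1.97 log2, adjusted p = 0.0402). Leaving out a high N2 array raises the difference by itself. Of 9 fits that left out 1 array each, this was the 1 in which ttr-31 passed. Its difference was 1.18 log2 without overactivation replicate 1. The other members with overactivation arrays above all N2 arrays were ttr-12, ttr-47 and ttr-52, described with underactivation, and ttr-9 and ttr-19, whose signals of 1.87 to 2.38 lay near the bottom of every array. Of the members named for their signal alone, ttr-14 differed by -0.05 (adjusted p = 0.910) and ttr-16 by -0.46 (adjusted p = 0.371).

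The probe set that matches both ttr-3 and ttr-4 cannot be given to either gene and was not counted among the members. RefSeq lists ttr-4 as a pseudogene, and the 2 genes lie near each other on chromosome III. This probe set read 9.38, 9.54 and 8.50 in N2, 10.76, 11.28 and 10.84 in overactivation, and 9.90, 8.69 and 9.83 in underactivation. The overactivation arrays were above all others. The difference was 1.82 log2, or 3.54-fold, from N2 (standard error 0.39, adjusted p = 0.0590). From underactivation it was 1.48 log2, or 2.80-fold (adjusted p = 0.520), so that it did not pass in either comparison. The unadjusted p against N2 was 0.00123 from limma, and as with ttr-15 the study's rule was a different one. Without underactivation replicate 4 the difference from N2, at the same size, had adjusted p = 0.0353 from limma. It did not pass in any other fit that left out 1 array. Adjusted p there ran from 0.0701 (without N2 replicate 2) to 0.176 (without overactivation replicate 3). The other shared probe sets gave differences between overactivation and N2 of 1.07 (ttr-30 with ttr-59, adjusted p = 0.318) and -0.33 (ttr-49 with ttr-40, adjusted p = 0.666), with arrays that overlapped.

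On the lower side, the overactivation arrays of 6 members, or 15%, lay below all N2 arrays, beside 7.83% of all genes (18.2% against 13.2% at a mean signal of at least 8). The largest difference was that of ttr-44 (C56A3.2). It read 9.63, 10.44 and 9.67 in N2, 8.75, 8.53 and 7.97 in overactivation, and 9.13, 9.89 and 9.84 in underactivation. All overactivation arrays were below all arrays of the other groups, which overlapped each other. The difference was -1.50 log2 from N2 (2.83-fold, standard error 0.32, adjusted p = 0.0611) and -1.20 from underactivation (2.30-fold, adjusted p = 0.548), and the first passed only when the dimmest 0.333 of probe sets were left out (adjusted p = 0.0485).

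Next came ttr-39 (C04G2.1), at 7.49, 6.96 and 7.65 in N2, 6.38, 6.85 and 6.25 in overactivation, and 6.86, 6.44 and 6.96 in underactivation, where the highest underactivation array came up to the lowest N2 array without passing it. The overactivation mean was -0.87 log2 from N2 (1.83-fold, adjusted p = 0.127). For ttr-24, ttr-48, ttr-25 and ttr-37 the differences were -0.86, -1.01, -0.54 and -0.73 (adjusted p = 0.246, 0.295, 0.344 and 0.355), and for ttr-17 -0.54 (adjusted p = 0.422). The overactivation arrays of ttr-25 overlapped those of N2, so it was not among the members with arrays below all N2 arrays. The second probe set of ttr-24 gave -0.84 (adjusted p = 0.373). In ttr-48 a single array carried much of the difference, which was -0.40 without overactivation replicate 4.

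**Figure D2:**
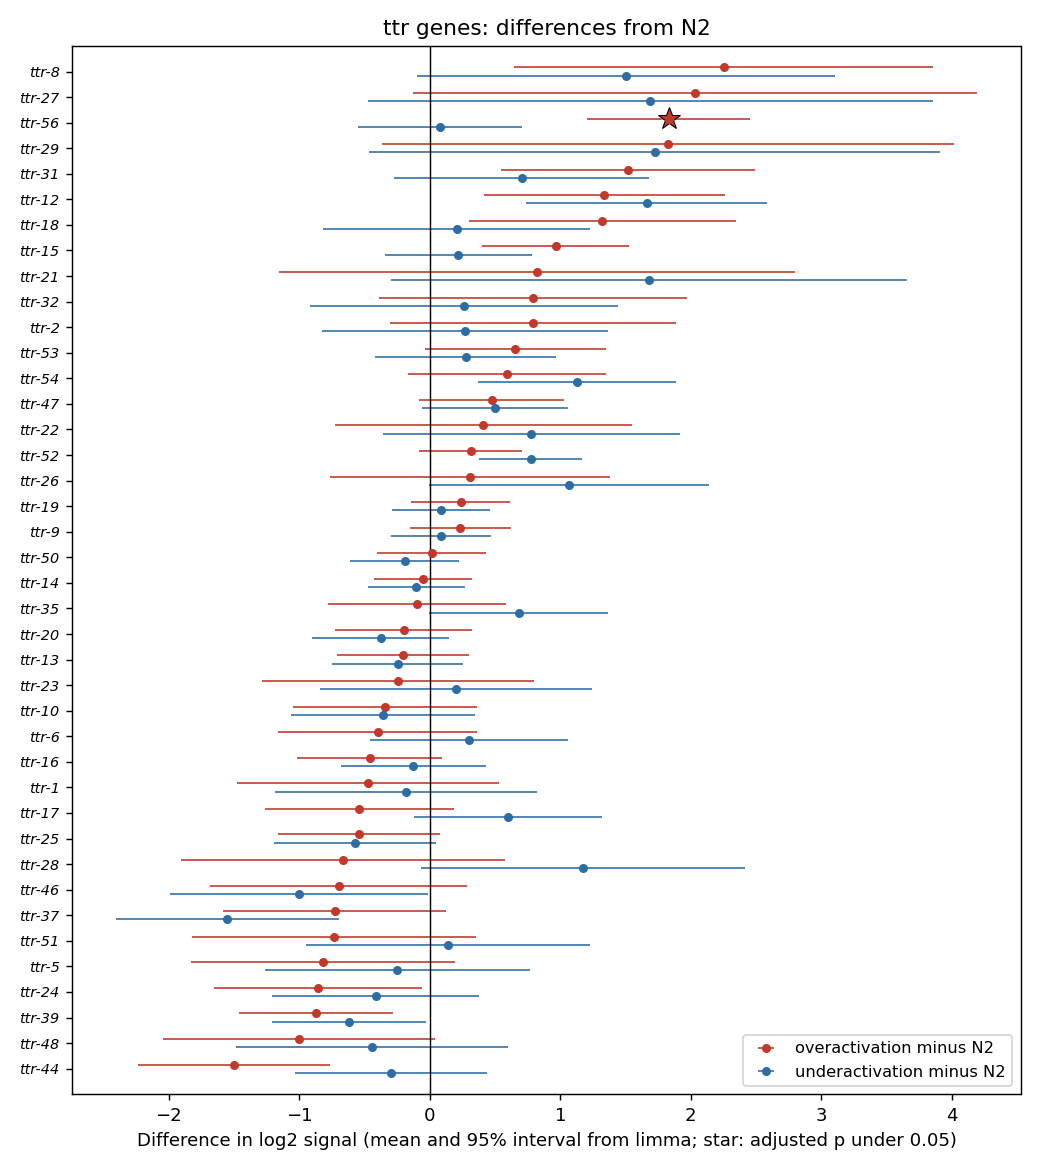
Difference in log2 signal from N2 (x axis) for each of 40 ttr genes (y axis, ordered by the overactivation difference), with 95% intervals from limma, overactivation in red and underactivation in blue. The star on ttr-56 (1.83) marks the single call, and the overactivation differences run from -1.50 in ttr-44 to 2.25 in ttr-8.

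In Wnt underactivation no ttr gene was called relative to N2. The called share was 0 of 40, as it was 0 of 17118 for all genes (0%), and an unadjusted p under 0.05 was reached by 3 members on either side (7.5% each, beside 7.46% and 5.19% of all genes, and 15% against 12.7% in either direction). Of the members 25 (62.5%, beside 53.9% of all genes) had a higher mean, and the median difference was 0.20 log2, beside 0.03 over all genes. This median rested on single arrays, at 0.06 without N2 replicate 4, 0.08 without underactivation replicate 5 and 0.36 without N2 replicate 2, and it was 0.01 with the replicate number as a block. The comparisons with N2 share the N2 arrays, so a gene with a high or low N2 array shifts in both. Side by side, 19 members had both means above N2 and 14 had both below.

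The smallest unadjusted p for underactivation against N2 belonged to ttr-52 (F11F1.7), the bridging protein of apoptotic cell engulfment. It read 3.55, 3.46 and 3.25 in N2, 3.76, 3.72 and 3.72 in overactivation, and 4.09, 4.06 and 4.43 in underactivation, so that the groups did not overlap and underactivation was the highest. Underactivation was 0.77 log2, or 1.71-fold, above N2 (standard error 0.17, adjusted p = 0.120), overactivation was 0.31 above N2 (adjusted p = 0.391), and overactivation was -0.46 from underactivation (95% interval -0.85 to -0.06, adjusted p = 0.802). None of the 3 differences passed. All its signals were low, with no present calls used to set them against background.

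Of the genes for engulfment of dying cells, the process in which TTR-52 acts, 10 of 10 were measured. In the 3 comparisons 0 were called by limma, with 4 at an unadjusted p under 0.05 for overactivation against N2, 2 for underactivation against N2 and 0 between the tagged strains, where 17.3%, 12.7% and 5.91% of all genes were. The 4 were ced-1, ced-2 and ced-6 with higher and ced-12 with lower means, and the 2 were ced-6 with a higher and dyn-1 with a lower mean. For overactivation against N2, 5 had higher and 5 lower means, with a median of 0.01 log2. The engulfment receptor gene ced-1 read 5.63 in N2, 7.27 in overactivation and 6.93 in underactivation as means (1.64 log2 between overactivation and N2, adjusted p = 0.262), and ced-6, whose product is an adaptor that binds the CED-1 tail, read 6.95, 8.54 and 8.33 (1.59 log2, adjusted p = 0.0914). The difference between overactivation and N2 was 1.21 in ced-2 and -0.67 in ced-12 (adjusted p = 0.201 and 0.142), and that between underactivation and N2 was -0.85 in dyn-1 (adjusted p = 0.228). The genes R09H10.3 and ZK697.8, which encode transthyretin-like proteins of the hydroxyisourate hydrolase type, differed by 0.42 and 0.43 between overactivation and N2 (adjusted p = 0.680 and 0.433).

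In ttr-12 and ttr-37 the underactivation arrays were also clear of N2. In ttr-12 (F46B3.4) the N2 arrays read 5.60, 5.35 and 4.60, the overactivation arrays 6.11, 7.08 and 6.37, and the underactivation arrays 7.49, 6.20 and 6.84. Both tagged strains lay above N2 and overlapped each other, at 1.66 log2 for underactivation (3.17-fold, standard error 0.41, adjusted p = 0.139) and 1.34 for overactivation (2.53-fold, adjusted p = 0.133). In ttr-37 (F21E9.3) N2 read 5.72, 6.62 and 6.53, overactivation 5.53, 5.50 and 5.64, and underactivation 3.98, 4.78 and 5.45. Here all 3 groups were apart in the order N2, overactivation, underactivation from high to low, by gaps small beside the spread of underactivation. The difference of underactivation from N2 was -1.55 log2 (2.93-fold, standard error 0.38, adjusted p = 0.138).

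Further members by the same ranking were ttr-54 (1.13, adjusted p = 0.212), ttr-35 (0.68, adjusted p = 0.391), ttr-26 (1.06, adjusted p = 0.394) and ttr-28 (1.17, adjusted p = 0.418) on the higher side. On the lower side they were ttr-39 (-0.62, adjusted p = 0.372), ttr-46 (-1.0, adjusted p = 0.381), ttr-25 (-0.57, adjusted p = 0.431), ttr-20 (-0.38, adjusted p = 0.574) and ttr-24 (-0.42, adjusted p = 0.713). Underactivation arrays lay above all N2 arrays in 5 members (12.5%, beside 9.4% of all genes) and below them in 4 (10%, beside 6.44%). Both tagged strains lay above all N2 arrays in ttr-12, ttr-47 and ttr-52 and below them in ttr-37, ttr-39 and ttr-48.

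The 2 tagged strains differ in the heat shock transgene, and between them 0 of 40 members were called by limma, beside 0.00584% of all genes called in either direction. In 20 members (50%, beside 54.7% of all genes) the mean was higher in overactivation, and the median difference was -0.005 log2, beside 0.03 over all genes. Without underactivation replicate 4 the median was -0.26, without overactivation replicate 1 it was -0.20, and at a mean signal of at least 8 it was -0.44 for the members, beside 0.02 for all genes. At an unadjusted p under 0.05 there were 3 members higher in overactivation and 5 lower (7.5% and 12.5%, beside 2.86% and 3.05% of all genes), or 20% in either direction, beside 5.91%. Arrays did not overlap in 5 members on the higher side and 5 on the lower side, each 12.5%, beside 6.82% and 5.26% of all genes (9.09% and 18.2% of members against 6.63% and 5.03% of genes at a mean signal of at least 8). The higher side held ttr-56, ttr-15, ttr-18, ttr-37 and the dim ttr-19, and the lower side ttr-44, ttr-17, ttr-28, ttr-6 and ttr-52.

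The largest difference of this comparison was in ttr-28 (R90.3), where underactivation was the steady group. It read 10.13, 9.15 and 8.96 in N2, 9.88, 8.81 and 7.55 in overactivation, and 10.52, 10.37 and 10.87 in underactivation. The underactivation arrays were above all others, and the overactivation arrays were spread over more than 2 log2 units and overlapped N2. Overactivation was -1.84 log2 from underactivation (3.58-fold, 95% interval -3.08 to -0.60, adjusted p = 0.649), and -1.24 without overactivation replicate 4.

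In ttr-17 (Y5F2A.2) N2 read 9.18, 8.75 and 8.87, overactivation 8.54, 7.99 and 8.66, and underactivation 8.85, 9.87 and 9.88. The overactivation arrays were below all others and the underactivation arrays overlapped N2. The difference between the tagged strains was -1.14 log2 (2.20-fold, 95% interval -1.86 to -0.42, adjusted p = 0.581). For ttr-6 it was -0.70 (adjusted p = 0.906) and for ttr-35 -0.78 (adjusted p = 0.806), while ttr-31 and ttr-53 stood at 0.82 and 0.38 (adjusted p = 0.906 and 0.936). The intervals of these comparisons are wide, so the tests that were missed do not show equal levels.

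Many ttr genes lie next to each other, which the choice of members did not use. In the RefSeq gene order 30 of 59 ttr genes fall into 12 groups of neighbours with at most 2 other protein-coding genes in between, and 18 members are among them. Of 8 pairs of members next to each other, 4 had overactivation differences from N2 of the same sign and 5 had underactivation differences of the same sign. Pairs of like value were ttr-54 and ttr-53 (0.59 and 0.66 in overactivation) and ttr-16 and ttr-17 (-0.46 and -0.54). On chromosome V, ttr-27, ttr-28 and ttr-29 are consecutive genes, and overactivation differed from N2 by 2.03, -0.67 and 1.83 log2 in them (adjusted p = 0.308, 0.584 and 0.365), whereas underactivation differed by 1.69, 1.17 and 1.72 (adjusted p = 0.529, 0.418 and 0.527). In the consecutive genes ttr-24, ttr-25 and ttr-26 the overactivation differences were -0.86, -0.54 and 0.31, and in ttr-8 and ttr-32 they were 2.25 and 0.79. None of these passed, and whether neighbours differ from each other was not tested.

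**Figure D3:**
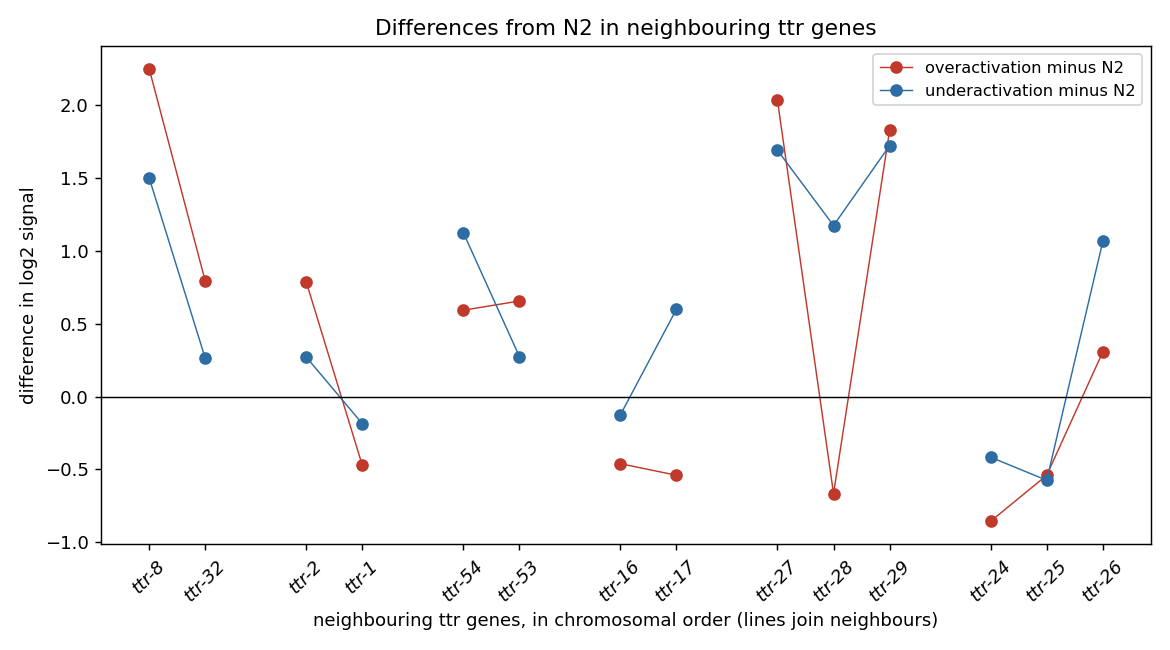
Difference in mean log2 signal from N2 (y axis) for ttr members that neighbour each other, in chromosomal order (x axis), with lines joining neighbours, overactivation in red and underactivation in blue. In ttr-27, ttr-28 and ttr-29 the overactivation values are 2.03, -0.67 and 1.83.

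The members varied within groups by a median SD of 0.459 log2, beside 0.357 over all genes. Among genes with a mean signal of at least 8 the medians were 0.601 for 22 members and 0.409 for 2882 genes. In 4 members the SD within groups was above 1. These were ttr-8, ttr-21, ttr-27 and ttr-29. The gene ttr-27 read 8.54, 5.75 and 5.90 in N2, 10.01, 8.20 and 8.07 in overactivation, and 8.48, 6.93 and 9.85 in underactivation, and ttr-21 read 9.25, 6.25 and 6.97, 9.50, 7.52 and 7.91, and 9.32, 7.99 and 10.21. In both, N2 replicate 2, overactivation replicate 1 and underactivation replicate 5 were the highest arrays of their groups.

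The same arrays led their groups over much of the family. N2 replicate 2 was the highest N2 array in 28 of 40 members, overactivation replicate 1 in 24 and underactivation replicate 5 in 22, and 15 members were highest on all 3 of these arrays. The same count was not made over all genes, so this order cannot be called particular to the family. The median signal of all genes was also highest in its group on overactivation replicate 1 (4.84) and underactivation replicate 5 (4.86). On N2 replicate 2 it was the lowest of its group (4.72). The level of hsp-70, a heat-inducible chaperone gene, also differed within groups, at 5.86, 10.19 and 11.16 in N2, 5.77, 4.73 and 8.13 in overactivation, and 8.71, 10.06 and 6.92 in underactivation. N2 replicate 2 and underactivation replicate 5 were the lowest arrays of their groups for hsp-70. In overactivation, replicate 3 was lower than replicate 1. Of 7 heat shock genes listed, 3 were measured. The others, hsp-16.2 and hsp-16.41, were both lowest within groups on N2 replicate 2, overactivation replicate 1 and underactivation replicate 5. These arrays read 9.82, 9.76 and 10.12 in hsp-16.2, and 8.67, 9.63 and 9.49 in hsp-16.41. Whether heat shock and ttr levels are linked was not tested, and a fit with hsp-70 as a covariate does not test it. The mean hsp-70 signal was 9.07 in N2, 6.21 in overactivation and 8.56 in underactivation. Such a fit thus cannot fully tell the hsp-70 level from the group. With the hsp-70 level of each array in the model, the difference of ttr-56 from N2 was 2.00 log2 (adjusted p = 0.0821), that of ttr-44 -1.52 (adjusted p = 0.178), that of ttr-15 0.64 (adjusted p = 0.302), that of ttr-8 1.20 (adjusted p = 0.441) and that of ttr-31 0.84 (adjusted p = 0.324). On the actin control probe sets, read as a sign of RNA integrity, the 3' signal exceeded the 5' signal by 0.67 to 0.91 in N2, 1.47 to 2.25 in overactivation and 0.90 to 2.35 in underactivation (log2), and with this value in the model ttr-56 differed from N2 by 1.80 (adjusted p = 0.654).

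**Figure D4:**
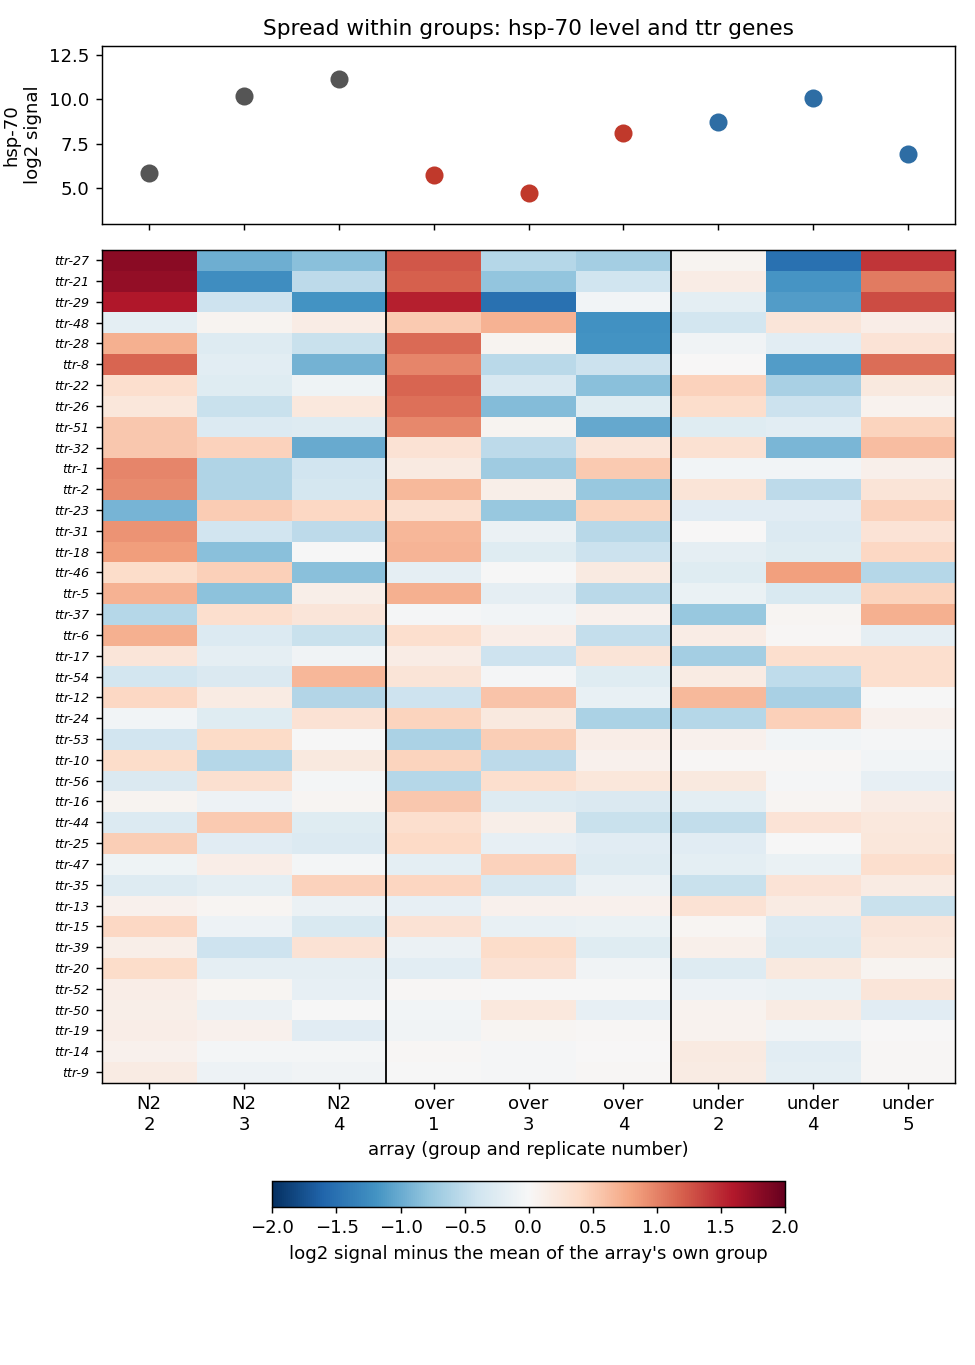
Upper panel, log2 signal of hsp-70 on each array (y axis). Lower panel, log2 signal of 40 ttr genes (rows) on 9 arrays (columns, with group and replicate number) minus the mean of the array's own group, from blue (lower) to red (higher), with rows ordered by their largest deviation. N2 replicate 2, overactivation replicate 1 and underactivation replicate 5 are the highest arrays of their groups in 28, 24 and 22 members. The same count was not made over all genes.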

How the data were processed

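The deposited values are log2 signals of 9 Affymetrix arrays, which the authors made with Robust Multichip Average; the labels name RMA and Partek, with versions not given in the sources used here. The methods describe amplified cDNA from coimmunoprecipitated mRNA, and the labels describe cRNA from total RNA. Present calls were not used here. Columns of values not used numbered 0.

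After 77 array controls were left out, 22548 probe sets were fitted with 3 groups in limma 3.58.1 (R 4.3.3; 6 residual and 2.71 prior degrees of freedom). P-values were two-sided with Benjamini-Hochberg adjustment across every probe set fitted, and a gene was called at an adjusted p under 0.05. The fit was tested on simulated data. Gene names came from the array annotation, matched by gene identifier to RefSeq (WBcel235): 20766 probe sets had 1 gene, 887 several and 895 none. Sequences were not used here, and RefSeq coordinates served only to give chromosomes and the order of genes. Signals of different probe sets were not read as relative transcript levels, and the number of arrays limits the precision. Plots were drawn with matplotlib 3.10.9 in Python 3.11.15.

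Members and lists were chosen with earlier results of these data known. Named were, per comparison, members called, up to 6 per direction with the smallest unadjusted p, ttr-15 and ttr-52, the members of highest and lowest mean signal, and members apart by over 1 log2 between the tagged strains; ttr-21, ttr-27, ttr-29, ttr-32 and ttr-47 were named after their values were seen. The rule also named ttr-3, ttr-4 and ttr-33, which have no probe set of their own. Promoter motifs and protein identity were planned and not run. Alternatives were another quantile normalization, median centring, a filter on dim probe sets, other or no moderation, only 2 groups, a replicate block, array weights, the mean of a gene's probe sets and leaving out each array; hsp-70 and actin covariates were added after the data were seen.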

Additional observations from a re-analysis of the deposited data

How the results depend on the processing

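None of 38 differences of named members changed direction under the alternatives run for them. These 38 were the members called or with the smallest unadjusted p in a comparison, together with ttr-15 and ttr-52. A steady direction was thus in part fixed by the choice. Members named for their signal alone were not among them. Over all members and comparisons, 25 of 120 differences changed sign when 1 array was left out, the largest of these being 0.56 in size (ttr-48 between overactivation and underactivation). Calls between overactivation and N2, 352 probe sets and 1 ttr gene, fell to 3 and 0 without moderation, 70 and 0 when a fit held just the 2 groups compared, and 0 and 0 with the replicate block, the hsp-70 covariate or the actin covariate; without the dimmest 0.333 of probe sets 2 ttr genes were called, ttr-56 and ttr-44. Leaving out 1 array gave 8 to 494 probe sets (8 without overactivation replicate 3, 494 without N2 replicate 2) and 0 to 2 ttr genes. Between underactivation and N2, 1 probe set was called, beside 2 after quantile normalization, 16 without the dimmest 0.333 of probe sets, 0 without moderation, with 2 groups, with the block or with either covariate, and 0 to 3 without 1 array. Between overactivation and underactivation, 1 probe set was called, beside 7 after quantile normalization, 4 after median centring, 8 without the dimmest 0.333 of probe sets, 12 with trend and robust moderation, 13 with array weights, 0 without moderation, with 2 groups, with the block or with either covariate, and 0 to 7 without 1 array. No ttr gene was called in the last 2 comparisons under any alternative. The median difference of the members between overactivation and underactivation, -0.005, was -0.33 with the hsp-70 covariate and -0.26 to 0.04 without 1 array. Same-number arrays of different groups had residual correlations of -0.088 to 0.234, beside -0.197 to 0.211 for other pairs, so the replicate block rests on shared numbers only. The causes of these changes were not tested. For the reasons given with ttr-56, the block and the actin covariate left little power for calls.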
